A study of Homo sapiens with 6 samples.

Results

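The mRNAs of 6 RNA-binding proteins that recognise AU-rich elements were followed in cells labelled MDA-MB-231 with and without knockdown of the lncRNA Smyca. They were the 3 members of the ZFP36 family (ZFP36, ZFP36L1 and ZFP36L2) and the AU-rich element binders ELAVL1, HNRNPD and KHSRP. The 6 genes were chosen by name with earlier results of this comparison known, among them the call of ZFP36, and were looked up through the Ensembl identifiers of the count data, which hold 58302 genes. All 6 passed the filter on low counts, as did 15075 genes in all. MDA-MB-231 is an established breast cancer cell line, which the study treats as mesenchymal. The control group was 3 libraries of cells expressing a control shRNA, and the other group was 3 libraries of cells expressing Smyca shRNA #1, with 1 shRNA against Smyca and no rescue in these data. The study describes the libraries of each group as biological repeats. The labels give no treatment beside the shRNA and no day of harvest. Total counts lay between 14999307 and 16501085 per library.

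Smyca, annotated as MIR23AHG, was at 25.0, 19.5 and 22.0 normalized CPM (counts scaled to TMM-adjusted library size) in the control and 10.5, 6.97 and 5.61 in the knockdown, in the direction of the labels. The markers went against the labelled cell line in part, in the control libraries too, so every value below is of cells labelled MDA-MB-231 whose identity these data do not settle. Of 14 mesenchymal basal-like markers, 12 were at 1 normalized CPM or more in each library (summed level 1460.0 to 2141 in the control and 1335 to 1691 in the knockdown), but TWIST1 was at 0 counts and SPARC under 1 everywhere. Of 10 epithelial markers 9 were at 1 or more in each library (7362 to 8704 and 7919.7 to 10679). Most of this sum was keratin mRNA (KRT8, KRT18 and KRT19), which MDA-MB-231 cells are known to express. Of the 7 other epithelial markers 6 were at 1 or more (864 to 1044 in the control and 711 to 845 in the knockdown), with CDH1 (E-cadherin), EPCAM and ESRP1 among them, which a mesenchymal line would largely lack. Of 11 gut markers 5 were (339 to 611 and 694 to 819), with HNF4A between 65.4 and 194, VIL1 between 220.5 and 501, and CDX1 at 0. Luminal markers had 3 of 7 (80.0 to 99.3 and 30.6 to 60.5), with ESR1, FOXA1 and PGR under 1, and liver markers 1 of 7 (28.9 to 49.5 and 26.3 to 74.2). Fibroblast markers had 1 of 6 (10.5 to 31.6 and 11.1 to 14.3) and immune markers 0 of 6 (1.17 to 1.73 and 0.635 to 1.45). Some markers moved with the groups. In every knockdown library, 6 of the 14 mesenchymal markers (SNAI2, VIM, SPARC, PLAU, ZEB1 and FOSL1) were below, and 0 above, all controls. Of all genes tested, 12.4% did not overlap with the control higher and 12.5% with the control lower. In the gut list VIL1 was above all controls and LGALS4 below, in the luminal list AGR2 and in the fibroblast list COL1A1 alone were below, and in the epithelial list ESRP1 and KRT8 were above and CLDN4 below. The part of these differences in the results that follow was not tested.

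AU-rich elements are stretches of A and U in the 3′ UTR of short-lived mRNAs, such as those of cytokines and early response genes. Proteins of the ZFP36 family bind them through tandem CCCH zinc fingers and recruit the CCR4-NOT deadenylase, which shortens the poly(A) tail before the mRNA is decapped or degraded by the exosome. KHSRP and most isoforms of HNRNPD (AUF1) also promote decay, whereas ELAVL1 (HuR) competes for such sites and mostly stabilises the mRNAs it binds. ZFP36 is itself encoded by a short-lived early response mRNA, and its protein is inactivated when p38 and MK2 phosphorylate it and 14-3-3 proteins bind.

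The optimal site of the ZFP36 family, the nonamer UUAUUUAUU, was present in the 3′ UTR of 4 of the 6 genes themselves, with 1 site each in ZFP36, ZFP36L1, ZFP36L2 and ELAVL1 and 0 in HNRNPD and KHSRP. In the canonical transcripts of GENCODE release 44, 8.44% of 19550 protein-coding genes with a 3′ UTR held at least 1. Binding was not measured in these libraries. The sites are shown because these 4 members share them with mRNAs that textbooks give as carriers of AU-rich elements. They are followed by 1 site each of 4 such mRNAs that are described further on. Each is written 5′ to 3′ as RNA, with the nonamer in capitals. They were read from GRCh38, at chr19:39409198-39409222 on the plus strand for ZFP36, chr14:68788079-68788103 on the minus strand for ZFP36L1, chr2:43223450-43223474 on the minus strand for ZFP36L2 and chr19:7961830-7961854 on the minus strand for ELAVL1. The 4 others lie at chr14:75282062-75282086 on the plus strand for FOS, chr5:172768645-172768669 on the minus strand for DUSP1, chr4:73742666-73742690 on the plus strand for CXCL8 and chr19:55365945-55365969 on the minus strand for IL11.
ZFP36: ugacgacuUUAUUUAUUcuaauaug
ZFP36L1: cuguuggaUUAUUUAUUuuagaaau
ZFP36L2: uauuuaacUUAUUUAUUaucuugug
ELAVL1: uuauguauUUAUUUAUUgaagugug
FOS: uuuuuaauUUAUUUAUUaagaugga
DUSP1: gcugguccUUAUUUAUUuaacuuca
CXCL8: guaaaguaUUAUUUAUUugaaucua
IL11: gaucuuauUUAUUUAUUuauuucag

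All 8 sites lie in the 3′ UTR of the canonical transcript. DUSP1 held 2 nonamers and IL11 6, some of which overlap, and FOS and CXCL8 held 1 each. The A and U content of the whole 3′ UTR was 56.9% in ZFP36, 59.9% in ZFP36L1 and 62.0% in ZFP36L2. It was 56.1% in ELAVL1, 67.0% in HNRNPD and 48.4% in KHSRP. HNRNPD thus had the 3′ UTR richest in A and U of the 6 and no nonamer in it.

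ZFP36 (ENSG00000128016), tristetraprolin, is the founding member of the family and spans chr19:39406847-39409412 on the plus strand. It was at 74.0, 47.3 and 68.1 normalized CPM in control repeats 1, 2 and 3 and at 14.6, 13 and 11.3 in Smyca knockdown repeats 1, 2 and 3. The groups did not overlap, and the lowest control library was above the highest knockdown library by more than the whole spread of either group. The means were 63.1 ± 14.1 and 13 ± 1.66 (SD, n = 3 each), and the log2 fold change of control over Smyca knockdown was 2.28 (standard error, SE, 0.21). In these bulk libraries, fewer cells with the mRNA and less mRNA per cell cannot be told apart. ZFP36 was the 1 member among 6 that met the criteria of the study for a DEG, a ratio of 1.5 or more, or of 0.66 or less, with an adjusted p under 0.05 (edgeR's quasi-likelihood test, Benjamini-Hochberg). Of all genes tested, 4 were DEGs with this test (0.0265%), whereas the study, which used DESeq, reports many more. The set was chosen with this call known. It is therefore given, like the calls of the other members under the alternatives, as a description of the contrast that chose them and not as evidence, and nothing is read from its share. The call was made in 8 of the 13 alternative analyses, which called from 2 to 1628 genes in all. It was not made with the repeat number as a block or without control repeat 1 or any 1 of the knockdown repeats.

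ZFP36L1 (ENSG00000185650; chr14:68787660-68796253, minus strand) acts on the same sites as ZFP36 and was the most abundant mRNA of the family. It was at 739, 434 and 373 normalized CPM in the control repeats and at 233, 145 and 189 after Smyca knockdown, so that the groups did not overlap. Control repeat 1 stood well above the other controls. The means were 515 ± 196 and 189 ± 43.7 (SD, n = 3 each), for a log2 fold change of 1.45 (SE 0.28). Without control repeat 1 this value was 1.1. ZFP36L1 met the DEG criteria in 3 of the 13 alternatives: without the low-count filter, without control repeat 3 and with DESeq2's Wald test. Among all genes, 916 of 30409, 1628 of 15449 (10.5%) and 836 of 14192 (5.89%) met them in these settings.

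ZFP36L2 (ENSG00000152518; chr2:43222402-43226606, minus strand), the third family member in humans, had groups that overlapped. It was at 180.0, 153 and 101 normalized CPM in the control repeats and at 159, 129.9 and 97.6 after Smyca knockdown. In each group repeat 1 was the highest and repeat 3 the lowest, and the labels do not say that repeats of the same number were handled together. The means of 145 ± 40.0 and 129 ± 30.6 (SD, n = 3 each) differed by less than either SD, with a log2 fold change of 0.17 (SE 0.25). The sign turned in 3 of the 13 alternatives: -0.011 without control repeat 1, -0.0034 without knockdown repeat 3 and -0.014 with the reads implied by the FPKM of control repeat 2.

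**Figure D1:**
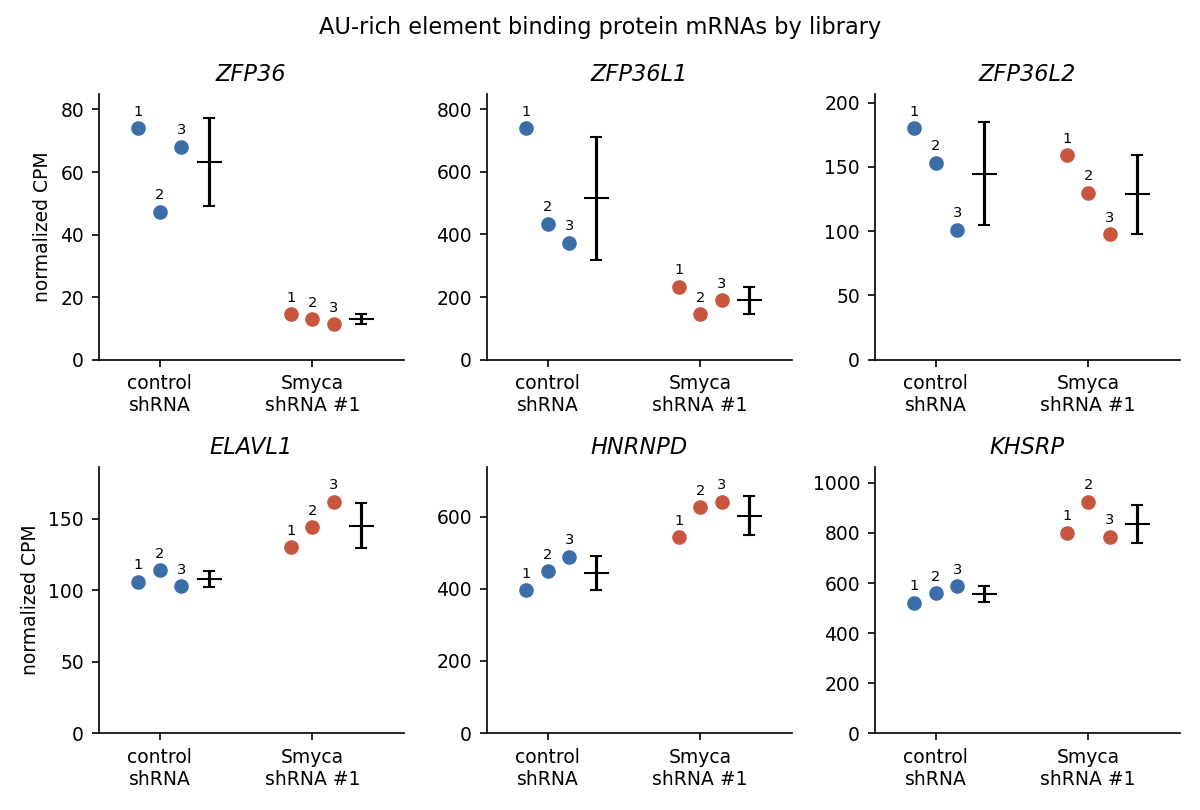
Normalized CPM (y axis, linear from 0) of each of the 6 mRNAs in the 3 control shRNA and 3 Smyca shRNA #1 libraries (x axis); points are libraries with their repeat number, and bars are the mean and SD of the 3. ZFP36 and ZFP36L1 are higher in every control library, ELAVL1, HNRNPD and KHSRP are lower in every control library, and the ZFP36L2 groups overlap.

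ELAVL1, HNRNPD and KHSRP were all lower in the control than in the knockdown, by smaller ratios. ELAVL1 (ENSG00000066044; chr19:7958573-8005659, minus strand), the stabilising binder, was at 106, 114 and 103 normalized CPM in the control repeats and at 130.0, 144 and 162 after Smyca knockdown. The means were 108 ± 5.37 and 145 ± 15.8 (SD, n = 3 each), for a log2 fold change of -0.43 (SE 0.14). Every knockdown library was above every control library.

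HNRNPD (ENSG00000138668; chr4:82352498-82374503, minus strand) encodes the isoforms of AUF1. It was at 396, 448 and 488 normalized CPM in the control repeats and at 542, 625 and 641 after Smyca knockdown, again without overlap. The means were 444 ± 46.2 and 603 ± 52.7 (SD, n = 3 each), for a log2 fold change of -0.44 (SE 0.15). KHSRP (ENSG00000088247; chr19:6413102-6424811, minus strand) encodes a KH-domain protein that recruits the exosome to AU-rich mRNAs and also takes part in microRNA maturation. It was at 522, 559 and 587 normalized CPM in the control repeats and at 801, 925 and 785 after Smyca knockdown. The groups did not overlap, with means of 556 ± 32.7 and 837 ± 76.7 (SD, n = 3 each) and a log2 fold change of -0.59 (SE 0.14). KHSRP met the DEG criteria in 2 of the 13 alternatives, without control repeat 3 and with DESeq2's Wald test (10.5% and 5.89% of all genes). ELAVL1, HNRNPD and ZFP36L2 met them in 0.

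Of the 6 mRNAs, 2 were thus higher in every control library and 3 lower in every control library. Among all 15075 genes tested, 12.4% did not overlap with the control higher and 12.5% with the control lower. At an unadjusted p under 0.05 (edgeR's quasi-likelihood test), the corresponding shares of all genes were 10.4% higher and 8.74% lower in the control. The members were chosen with this comparison in view, and nothing is read from their counts against these shares. The direction of 5 members was the same in each of the 13 alternatives. The log2 fold change of ZFP36 lay between 2.15 and 2.46 and that of ZFP36L1 between 1.1 and 1.63. It lay between -0.51 and -0.36 for ELAVL1, between -0.52 and -0.36 for HNRNPD and between -0.64 and -0.52 for KHSRP.

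**Figure D2:**
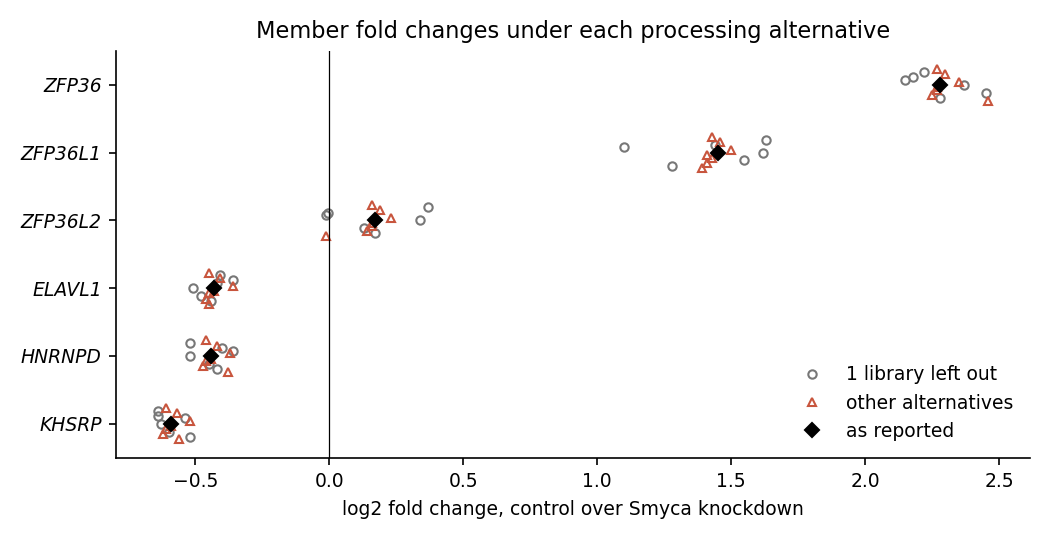
Log2 fold change of control over Smyca knockdown (x axis) of each of the 6 members (y axis) as reported (diamonds) and under the 13 alternatives, 6 of which leave out 1 library (circles) and the rest of which change the normalization, filter, block, reads or tool (triangles). ZFP36L2 lies around 0, from -0.014 to 0.37, and the other 5 members stay on one side of it.

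Levels can be set between genes only per length. With the gene lengths that the authors' FPKM values imply, the control means in normalized CPM per kilobase were 559 ± 32.8 for KHSRP, 309.7 ± 32.2 for HNRNPD and 275 ± 105 for ZFP36L1 (SD, n = 3 each). ZFP36 at 54.7 ± 12.2, ELAVL1 at 53.7 ± 2.68 and ZFP36L2 at 39.2 ± 10.8 followed (SD, n = 3 each). HNRNPD and ZFP36L1 overlapped over the control libraries, as did ZFP36 and ELAVL1, while the other neighbours in this order did not. In the knockdown the order was KHSRP at 842 ± 77.1, HNRNPD at 420.2 ± 36.8, ZFP36L1 at 101 ± 23.3, ELAVL1 at 72.4 ± 7.88, ZFP36L2 at 34.8 ± 8.28 and ZFP36 at 11.2 ± 1.43 (SD, n = 3 each). There the values of ZFP36L1 and ELAVL1 overlapped and those of the other neighbours did not. ZFP36 moved from the fourth place to the last.

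The order depends on the length used. The implied lengths were 994 bases for KHSRP, 1434 for HNRNPD, 2005 for ELAVL1 and 1875 for ZFP36L1, and the canonical transcripts measure 4276, 3068, 6054 and 3017 bases. Per kilobase of canonical transcript, the control means were 171 for ZFP36L1, 145 for HNRNPD, 130.0 for KHSRP, 39.2 for ZFP36L2, 36.1 for ZFP36 and 17.8 for ELAVL1 in normalized CPM. On this scale, too, ZFP36 had the lowest mean of the 6 in the knockdown, 7.42.

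The make-up of the ZFP36 family differed between the groups. On the scale of implied length, ZFP36 made up 12.6%, 13% and 20.7% of the summed family level in the control repeats and 7.04%, 9.09% and 7.13% after Smyca knockdown. ZFP36L2 made up 9.60%, 13.2% and 9.62% in the control and 23.9%, 28.4% and 19.2% in the knockdown. Neither share overlapped between the groups. ZFP36L1 held the largest share in each library, 73.7% ± 4.02 in the control against 68.4% ± 5.58 in the knockdown (SD, n = 3 each), and its shares overlapped. With canonical lengths the means were 15.3% and 7.15% for ZFP36, 68.5% and 59.6% for ZFP36L1, and 16.2% and 33.3% for ZFP36L2.

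The summed level of the family was 507, 314 and 285 normalized CPM per kilobase in the control repeats and 179.6, 124 and 137 after Smyca knockdown. All control libraries were above all knockdown libraries, and the control mean of 369 ± 121 stood against 147 ± 29.1 (SD, n = 3 each). ELAVL1, the stabilising counterpart, was at 0.823, 1.39 and 0.876 times the level of ZFP36 in the control repeats and at 5.13, 6.39 and 8.24 times after Smyca knockdown, with the implied lengths. With canonical transcript lengths the ratios were 0.412, 0.694 and 0.439 in the control and 2.57, 3.2 and 4.13 in the knockdown, so that whether ELAVL1 was above or below ZFP36 in control repeat 2 depends on the length used. Against the family sum, again with implied lengths, the ratio of ELAVL1 was 0.155 ± 0.0444 in the control against 0.510 ± 0.129 in the knockdown (SD, n = 3 each). These ratios follow from the members' own values and are a description of mRNA, since protein was not measured in these libraries.

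**Figure D3:**
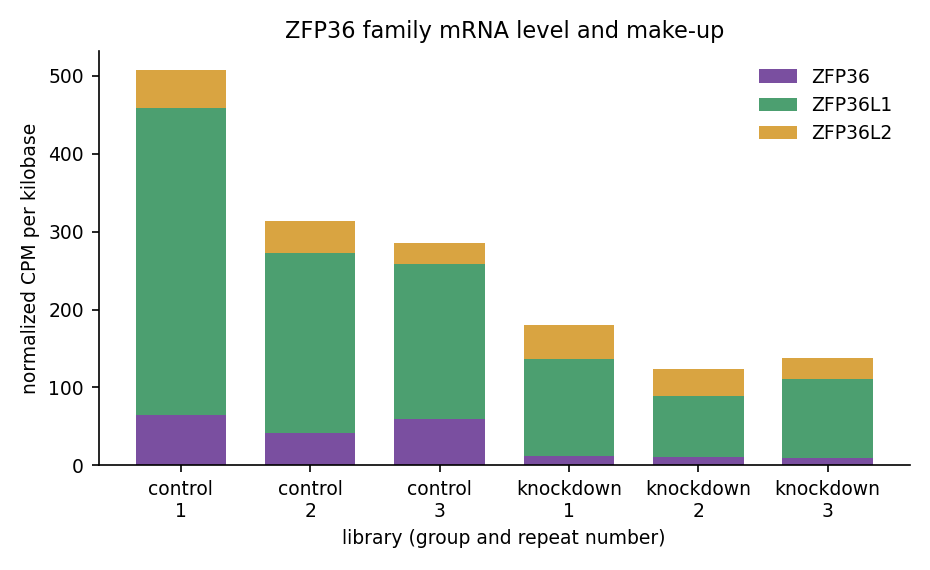
Stacked level of ZFP36, ZFP36L1 and ZFP36L2 mRNA in normalized CPM per kilobase of the length implied by the authors' FPKM (y axis, from 0) in each of the 6 libraries (x axis). The whole bars are between 285 and 507 in the control and between 124 and 179.6 in the knockdown, and the ZFP36L2 part differs little in height between the groups.

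Control repeat 2 carried 2 sets of values that did not match. In the other 5 libraries the deposited FPKM followed the read counts, but in this one it corresponded to other whole reads. For ZFP36 these were 1284 reads where the count column held 768, and for ZFP36L1 they were 6777 against 7046. ZFP36L2 had 1810 against 2493. ELAVL1 had 1931 reads against 1848 counts, HNRNPD 8862 against 7277 and KHSRP 10497 against 9083. The total of these reads was 16759253, against 15560192 counts. The count column was used here, and of the 6 members the sign of ZFP36L2 alone changed with the other reads.

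Genes that are annotated over the members, or named as their pseudogenes, had few counts of their own where they were counted. HNRNPD-DT, on the other strand at the 5′ end of HNRNPD, reached 13 counts at most, and an lncRNA inside ELAVL1 on the other strand (ENSG00000269813) and MIR3940 in KHSRP had 0 in all. The processed pseudogenes HNRNPDP1 and HNRNPDP2 had 0 counts and KHSRPP1 at most 1. GENCODE release 44 also places an lncRNA over ZFP36L1 on the same strand (ENSG00000289626) and another over ZFP36L2 on the other strand (ENSG00000287387), which were not analysed here. The libraries were strand-specific, but the strand setting of the counting is not given in the sources used here, so what these genes added to or took from the members' counts is not known.

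Letters of known motifs were searched on both strands from 250 bases before to 50 bases after the start of each gene, in RefSeq promoter sequences of GRCh38, which matched 4 of the 6 members (ZFP36, ZFP36L1, HNRNPD and KHSRP). The letters were TGACTCA for AP-1, TGACGTCA for the cAMP response element, CACGTG for the E-box of Myc and Max, GTCTAGAC for the Smad box, CAGAC for its core site, GCGTGGGCG for EGR1 and the CArG box of serum response factor. ZFP36L1 held the cAMP response element from -52 to -45 counted from the start, as did 1.85% of 35116 promoters, and a Smad core site from -223 to -219, as did 45.3%. ZFP36L1 had 2 such windows and neither site was in both of them, while the percentages count single promoters. HNRNPD held an E-box from -27 to -22, as did 7.26% of promoters, and a CArG box from 5 to 14, as did 1.29%. In the windows of ZFP36 and KHSRP none of the 7 was present, which says only that these letters are not there.

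Other proteins that bind AU-rich or stem-loop instability elements came next. Of 21 listed genes, 18 were tested, 13 of them lower in the control, with a median log2 fold change of -0.261 against 0.036 over all genes tested. With edgeR's quasi-likelihood test 0 were DEGs, 1 was higher and 4 were lower in the control at an unadjusted p under 0.05 (10.4% and 8.74% of all genes), and DESeq2 called 2 (5.89% of the 14192 genes it gave an adjusted p). HNRNPAB, a close relative of HNRNPD, had a log2 fold change of -0.78 (SE 0.24, adjusted p = 0.148, edgeR's quasi-likelihood test). HNRNPA0 was at 316, 342 and 362 normalized CPM in the control repeats and 517, 626 and 513 after Smyca knockdown, a log2 fold change of -0.70 (SE 0.15, adjusted p = 0.111). The groups of both genes did not overlap. In the other direction, ZC3H12A (Regnase-1), an endonuclease that cuts stem-loops in inflammatory mRNAs, had a log2 fold change of 0.65 (SE 0.23, adjusted p = 0.189). TIA1, a translational silencer, had 0.27 (SE 0.15) and HNRNPDL, a paralogue of HNRNPD, 0.097 (SE 0.16), both with overlapping groups, and HNRNPC had -0.34 (SE 0.14) and YBX1 -0.42 (SE 0.18). ELAVL2, a neuronal relative of ELAVL1, was at 5.25, 8.86 and 1.92 normalized CPM in the control and 10.5, 8.87 and 1.25 in the knockdown, a log2 fold change of -0.37 (SE 0.73) with overlapping groups. ELAVL3 and ELAVL4, the other neuronal relatives, reached 2 counts and 1 count and were not tested. The other untested gene of the list, ZFP36L3, was not found by its symbol in the count data.

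The deadenylation machinery that the ZFP36 family recruits showed both directions. All 18 genes listed were tested, 8 higher and 10 lower in the control. Their median log2 fold change was -0.026, and it was above 0 in 3 of the 13 alternatives. It was 0.043 with total counts (0.11 for all genes, against 0.036 as reported), 0.035 without knockdown repeat 2 and 0.00056 without control repeat 3. None was a DEG with edgeR's quasi-likelihood test (0 of 18), 3 were higher and 3 lower at an unadjusted p under 0.05 (10.4% and 8.74% of all genes), and DESeq2 called 4 (5.89% of all genes). PAN2, the catalytic subunit of the PAN2-PAN3 deadenylase, was at 74.4, 58.0 and 46.9 normalized CPM in the control repeats and 35.1, 28.3 and 26.5 after Smyca knockdown, a log2 fold change of 1.00 (SE 0.20, adjusted p = 0.111, edgeR). BTG1 and BTG2, antiproliferative adaptors of the CCR4-NOT complex, had 0.89 (SE 0.20) and 0.82 (SE 0.23). TOB2, of the same BTG/TOB family, went the other way with -0.83 (SE 0.14, adjusted p = 0.111), from 72.4, 70.8 and 60.8 in the control to 112, 124 and 125 in the knockdown. The groups of these 4 genes did not overlap. The scaffold CNOT1 had a log2 fold change of -0.37 (SE 0.23), CNOT9 -0.44 (SE 0.15), CNOT6L -0.43 (SE 0.20) and the catalytic subunit CNOT7 0.17 (SE 0.20).

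Of 19 decapping and 5′-to-3′ decay genes tested, 14 were lower in the control, with a median log2 fold change of -0.232. The median was -0.14 without knockdown repeat 2, -0.15 without control repeat 1 and -0.15 with the FPKM reads of control repeat 2. With edgeR's quasi-likelihood test 0 were DEGs, 0 were higher and 3 lower at an unadjusted p under 0.05 (10.4% and 8.74% of all genes), and DESeq2 called 0. The 3 were LSM4 and LSM6, of the ring that binds oligoadenylated 3′ ends, and the helicase DDX6, with log2 fold changes of -0.47, -0.45 and -0.35 (SEs 0.16, 0.16 and 0.15). The decapping enzyme DCP2 had 0.40 (SE 0.18) and the exonuclease XRN1 0.34 (SE 0.18), both without overlap and higher in the control. LSM7 had -0.45 (SE 0.20), with overlap, and DCP1B 0.14 (SE 0.22).

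The exosome and its SKI and nuclear cofactors had a median log2 fold change of -0.101, with 13 of 17 genes lower in the control. The median was -0.26 without control repeat 3, -0.20 without knockdown repeat 1 and -0.033 with total counts, where that of all genes was 0.11. With edgeR's quasi-likelihood test 0 were DEGs, 0 were higher and 1 was lower at an unadjusted p under 0.05 (10.4% and 8.74% of all genes), and DESeq2 called 0. The 1 was MTREX, the helicase of nuclear exosome adaptor complexes, at -0.66 (SE 0.22, adjusted p = 0.169, edgeR). The subunits EXOSC6 and EXOSC4 had -0.48 (SE 0.24) and -0.42 (SE 0.27), with overlapping groups. EXOSC10, the nuclear exoribonuclease, had -0.038 (SE 0.14) and DIS3, the processive one, 0.033 (SE 0.23). SKIC3 and EXOSC1 had 0.16 (SE 0.13) and 0.11 (SE 0.14). Without control repeat 3, edgeR called 3 of the 17 genes, against 10.5% of all genes in that fit. The same fit called 2 of the 18 other AU-rich element binders, 3 of the 18 deadenylation genes and 0 of the 19 decapping genes. It called 0 of the 15 genes of the list that follows.

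Of the kinases, phosphatase subunits and 14-3-3 adaptors that act on ZFP36 protein, 15 were tested, 5 higher and 10 lower in the control, with a median log2 fold change of -0.197. With edgeR's quasi-likelihood test 0 were DEGs, 1 was higher and 4 were lower at an unadjusted p under 0.05 (10.4% and 8.74% of all genes), and DESeq2 called 0. All 4 lower genes were 14-3-3 genes, among them YWHAE at -0.42 (SE 0.14) and YWHAH and YWHAQ at -0.38 each (SEs 0.16 and 0.15). MAP2K6, a kinase that activates p38, was the higher one at 0.78 (SE 0.32), with 12, 12.4 and 11.8 normalized CPM in the control and 9.33, 3.93 and 7.86 in the knockdown. MAPK14 (p38α) itself had 0.044 (SE 0.16) and MAPKAPK2 (MK2) -0.20 (SE 0.18). MAPK11 had 0.53 (SE 0.46) and MAPKAPK3 0.09 (SE 0.27), with overlapping groups.

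**Figure D4:**
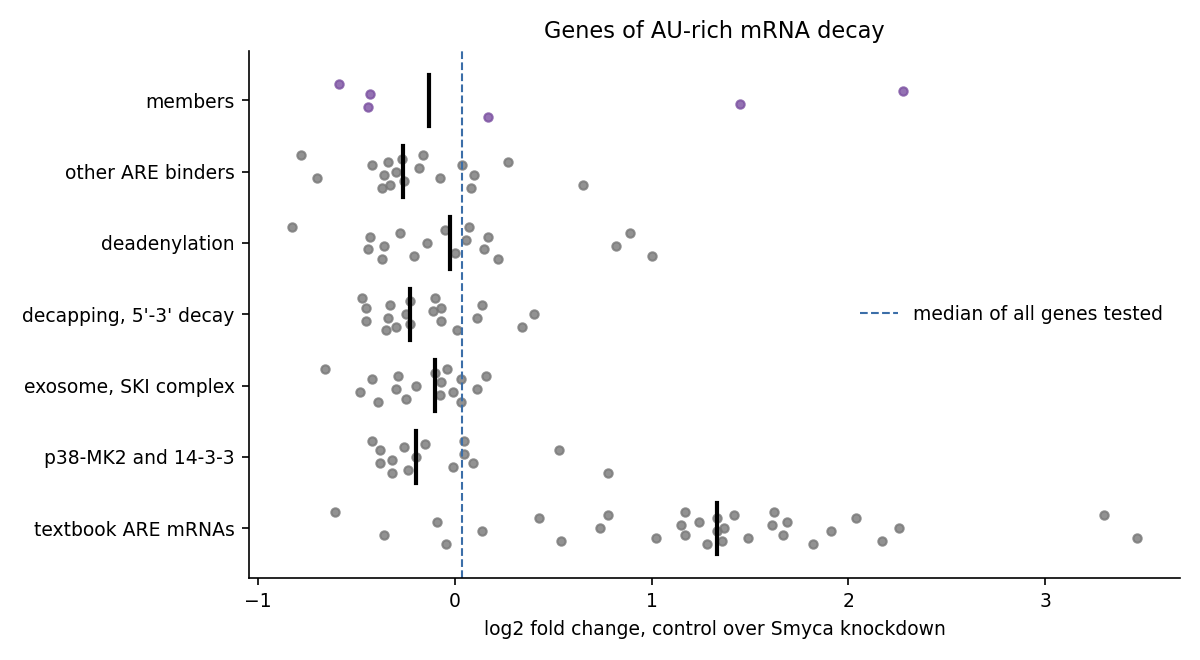
Log2 fold change of control over Smyca knockdown (x axis) of each tested gene (points) in the 6 members and in 6 gene lists of AU-rich mRNA binding and decay (y axis); black bars are list medians, and the dashed line is the median of all genes tested, 0.036. The medians of the 5 lists of binding and decay factors lie between -0.261 and -0.026, and that of the textbook AU-rich mRNAs at 1.332.

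The mRNAs that textbooks give as carriers of AU-rich elements were mostly higher in the control, the group with more ZFP36 mRNA. Of 40 listed genes 32 were tested, and 28 of these were higher and 4 lower in the control, with a median log2 fold change of 1.332. With edgeR's quasi-likelihood test 2 were DEGs, 23 were higher and 1 was lower at an unadjusted p under 0.05 (10.4% and 8.74% of all genes), and 21 were without overlap and higher in the control (12.4% of all genes). DESeq2 called 20 of them, against 5.89% of all genes, and edgeR called 16 without control repeat 3, against 10.5% of all genes in that fit. The list overlaps with early response genes whose difference between these libraries was known when it was drawn up, so that its counts are a description.

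JUN, a subunit of AP-1, was 1 of the 2 DEGs, with 697, 561 and 929.6 normalized CPM in the control repeats and 197, 196 and 189.8 after Smyca knockdown. Its log2 fold change was 1.91 (SE 0.20, adjusted p = 0.0312, edgeR's quasi-likelihood test). The other was DUSP1, a phosphatase that inactivates p38 and JNK, with 48.9, 32.1 and 33.4 in the control and 9.14, 7.98 and 8.32 in the knockdown, a log2 fold change of 2.17 (SE 0.21, adjusted p = 0.0312). Both mRNAs were lower in each knockdown library than in any control. The call of JUN was made in 8 and that of DUSP1 in 7 of the 13 alternatives, with both lost under the repeat block, without control repeat 1 and without each knockdown repeat, and DUSP1 also without control repeat 2.

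FOS, whose nonamer is shown above, was at 49.5, 47.1 and 123 normalized CPM in the control repeats and at 8.32, 5.64 and 8.25 after Smyca knockdown. Its log2 fold change of 3.30 (SE 0.40) had an adjusted p of 0.0605 (edgeR's quasi-likelihood test), and control repeat 3 stood above the other controls. FOSB, its paralogue, had 2.26 (SE 0.59, adjusted p = 0.126), with control repeat 3 at 71.9 and the other controls at 20.2 and 13.9. IL11, a cytokine of the IL-6 family with 6 nonamers, had control values far apart. It was at 33.2, 13.4 and 2.56 in the control and at 1.65, 1.58 and 1.19 in the knockdown, a log2 fold change of 3.47 (SE 0.79, adjusted p = 0.114). CXCL8 (interleukin-8) was at 19.4, 14.6 and 37.3 in the control and 5.84, 3.74 and 19.7 in the knockdown, with overlapping groups and a log2 fold change of 1.28 (SE 0.59, adjusted p = 0.282).

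The best known ZFP36 targets had too few counts in these libraries to be compared. TNF reached 3 counts at most, IL6 and PTGS2 (cyclooxygenase-2) had 0 in each, and CSF2 (GM-CSF) had at most 22, and these were not tested. A count of 0 allows up to 3 counts, or 0.182 to 0.2 CPM in these libraries, for counting error only. At the other end of the list, CCND1 (cyclin D1) had a log2 fold change of -0.61 (SE 0.24, adjusted p = 0.221, edgeR), with overlapping groups. BCL2 had -0.36 (SE 0.39) and HIF1A -0.09 (SE 0.17). Split by function after the values had been seen, the 12 immediate-early genes of the list lay between 1.168 and 3.301 on the log2 scale and 8 tested cytokine and chemokine genes between 0.141 and 3.467. The 5 tested genes of secreted and surface proteins lay between 0.43 and 1.671, with a median of 1.17, and the 7 growth and survival genes between -0.608 and 1.687, with a median of -0.045.

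Across all genes, those with and without a nonamer differed little. The 1173 tested genes with at least 1 nonamer in the 3′ UTR (9.32% of 12582) had a median log2 fold change of 0.054, against -0.001 in 11409 genes without one. At an unadjusted p under 0.05, 12% of the first were higher and 7.50% lower in the control, against 9.97% and 10.3% of the second. Genes with 1 nonamer and with 2 or more had medians of 0.055 and 0.054, so that the median was no larger with more sites. The 3′ UTR was longer in genes with a nonamer, with a median of 3063 against 1173 bases, and richer in A and U, with a median of 61.6% against 56.3%, and the part of either in the difference was not tested apart from the length range that follows. Among 3′ UTRs of 1000 to 3000 bases, a range chosen after the data had been seen, the medians were 0.063 in 425 genes with a nonamer and -0.028 in 4111 without. Scaling by total counts moved the median of all genes to 0.11, with 0.126 in genes with a nonamer and 0.069 in those without. Over the 13 alternatives the median with a nonamer was above that without by 0.035 to 0.09. With 1 library left out, the median of nonamer genes lay between 0.018 and 0.091. With the shorter core UAUUUAU in place of the nonamer, the medians were 0.021 in 4399 genes with it and -0.007 in 8183 without, a smaller difference.

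Within the textbook list, the median of genes with a nonamer was no larger than that of genes without one, although the largest values, those of IL11 and FOS, were in genes with one. The difference was not tested. The 15 tested genes that held one had a median log2 fold change of 1.283 and the 17 without one 1.357, and 9 and 14 of them were higher in the control at an unadjusted p under 0.05 (10.4% of all genes). Without overlap and higher in the control were 7 of the 15 (46.7%) and 14 of the 17 (82.4%), against 12.4% of all genes. The tested genes with the most nonamers did not differ beyond their spread. LSM8, a subunit of the nuclear LSM ring with 11 nonamers in a 3′ UTR of 12033 bases, had a log2 fold change of 0.26 (SE 0.22). MEAF6 with 10 had -0.10 (SE 0.15), and BCLAF1, CCNJL and UBE2W with 9 each had -0.17, 0.016 and 0.11 (SEs 0.19, 0.19 and 0.21). The groups of all 5 overlapped.

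**Figure D5:**
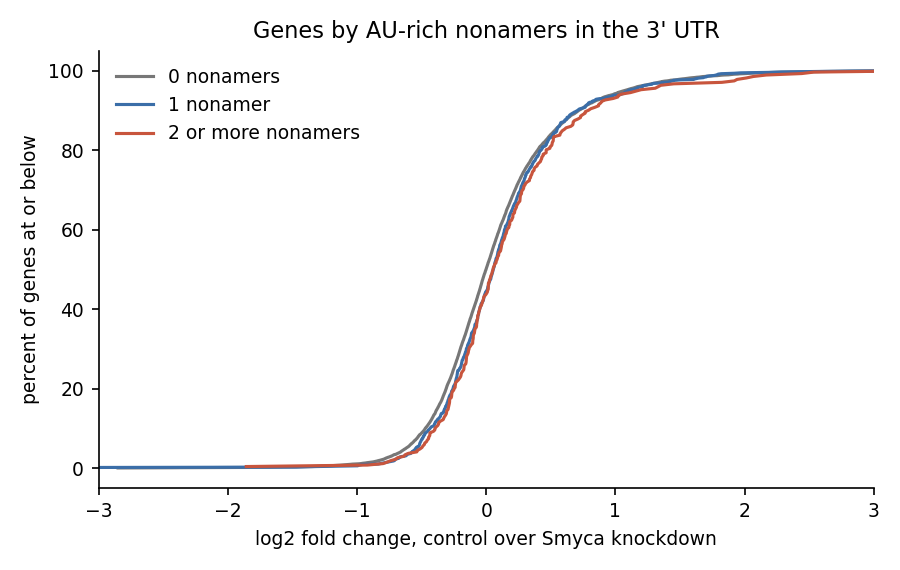
Cumulative percent of tested genes (y axis) at or below a log2 fold change of control over Smyca knockdown (x axis, shown from -3 to 3) for genes with 0, 1 and 2 or more nonamers in the 3′ UTR. The curves of the 902 genes with 1 and the 271 genes with 2 or more run close together, slightly to the right of the 11409 genes with 0 (medians 0.055, 0.054 and -0.001).

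The genes whose pattern over the 6 libraries was most like that of each member were found by Pearson's r of log2(normalized CPM + 1) among tested genes with a mean of at least 10 normalized CPM. The values carry no p. They can rest on a shared difference between the groups, on a shared pattern among the repeats within the groups, or on both. For ZFP36 the genes were ARC (r = 0.9928), GRIPAP1 (0.992), DUSP1 (0.9883), ENDOV (0.987) and STX16 (0.9864). Their deviations from the group means correlated with those of ZFP36 at 0.66 (STX16) to 0.87 (ARC). For ZFP36L1 the genes were PPP1R15A (0.9966), GTPBP2 (0.9959) and BTG1 (0.9949), with deviations correlated at 0.98 to 0.99. PPP1R15A (GADD34), a stress-induced phosphatase subunit, shared the high control repeat 1 of ZFP36L1, with 297, 155 and 149 in the control and 81.7, 54.2 and 72.1 normalized CPM in the knockdown.

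For ZFP36L2 the genes were PTPRN2 (0.9941), ABCA2 (0.9937) and MON1B (0.9924), each of which also had the highest value in repeat 1 and the lowest in repeat 3 of both groups. The groups of these 3 genes overlapped as those of ZFP36L2 did, and their deviations from the group means correlated with those of ZFP36L2 at 0.99 to 1.0. ELAVL1 had NAA50 (0.9969), DDB1 (0.9964) and CBX6 (0.9953), and HNRNPD had RCC1L (0.998), EIF4G1 (0.9979) and POLDIP2 (0.9971). For KHSRP they were HNRNPA0 (0.9997), SNX8 (0.9953) and XPO5 (0.9951), of which HNRNPA0 belongs to the AU-rich element binders above. Deviations of the genes of ELAVL1 and HNRNPD correlated with those of their member at 0.98 to 0.99. For the genes of KHSRP this was 0.95 to 1.0. BTG1, close to ZFP36L1, was also among the deadenylation genes.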

How the data were processed

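RNA of 3 control shRNA and 3 Smyca shRNA #1 libraries was sequenced by the study, which describes rRNA removal, strand-specific libraries, paired ends and mapping to GRCh38 (hg38) with TopHat v2.0.12 and counting with HTSeq. The labels name Trizol and the methods a column kit for RNA extraction. The authors deposited raw read counts per Ensembl gene. The authors also deposited FPKM, used here only for gene lengths and for the reads behind control repeat 2, whose FPKM did not follow its counts (100% of 23593 genes came out whole within 0.05 reads, and 3357 genes with 0 counts had FPKM above 0). The annotation release, the mapping and counting settings and the strand setting are not given in the sources used here, and they could move reads between overlapping or near-identical genes.

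Symbols came from GENCODE release 44 (57532 of 58302 identifiers). Counts were fitted in R 4.3.3 with edgeR 4.0.16 (TMM, filterByExpr, quasi-likelihood test, Benjamini-Hochberg adjustment over 15075 genes) in place of the study's DESeq. The biological coefficient of variation was 25.2%. Alternatives were RLE size factors, total counts, no filter, at least 10 counts in every library, the repeat number as a block, the FPKM reads of control repeat 2, leaving out each library, DESeq2 1.42.0 and, for the nonamer, a heptamer or at least 2 sites. The code was tested on simulated data. Nonamers were counted in the 3′ UTR of the canonical transcript of each protein-coding gene.

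The members and lists were chosen with earlier results of these data known. The result of 1 marker gene is not reported here. Named were all members, the 3 highest and 3 lowest genes of each list, some genes fixed by name, DEGs of the lists and the genes most like each member. Also named were those with most nonamers, ELAVL2 (added after its values were seen), the untested AU-rich element binders and the genes overlapping a member.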

Additional observations from a re-analysis of the deposited data

How the results depend on the processing

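The direction of ZFP36, ZFP36L1, ELAVL1, HNRNPD and KHSRP was the same in all 13 alternatives, and that of ZFP36L2 was not (3 of 13 below 0). The count of DEGs depended on the setting: 4 as reported, 8 with total counts, 916 without the low-count filter, 10 with the FPKM reads of control repeat 2 and 836 with DESeq2. Leaving out 1 library gave 0 to 1628 DEGs, with 1628 without control repeat 3, 2 without control repeat 2 or knockdown repeat 3, and 0 without control repeat 1 or knockdown repeats 1 or 2. Genes at an unadjusted p under 0.05 then numbered 1687 (without knockdown repeat 2) to 4575 (without control repeat 3), with 1730 without control repeat 1. The cause was not tested.

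With the repeat number as a block, 0 genes were DEGs and 2568 had an unadjusted p under 0.05, against 2893 without it. Between repeats of the same number, deviations from the group mean correlated at 0.0207 to 0.0938 (mean 0.0560, against -0.0268 for other numbers), and 3 of 6 libraries correlated best with their own number, so the numbers were not taken to pair the samples. The block changed no direction of a member.

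The median log2 fold change of AU-rich element binders was -0.19 with total counts, -0.19 with the FPKM reads and -0.24 to -0.18 with 1 library left out. For decapping genes it was -0.16, -0.15 and -0.26 to -0.14 (-0.14 without knockdown repeat 2 and -0.15 without control repeat 1). With 1 library left out, it was -0.26 (without control repeat 3; -0.20 without knockdown repeat 1) to -0.099 for the exosome list and 1.12 to 1.47 for textbook AU-rich mRNAs. Total counts moved the median of all genes from 0.036 to 0.11. The median was then -0.033 for the exosome list (-0.101 as reported) and 0.043 for the deadenylation list (-0.026 as reported). For genes with a nonamer it was 0.13 with total counts. With the heptamer in place of the nonamer it was 0.021 (0.054 as reported). TNF, IL6, PTGS2 and CSF2 were too low in these libraries to compare.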
